A study of Mus musculus with 8 samples.

Results

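Nuclear receptors are transcription factors that bind DNA and, in most cases, a small fat-soluble ligand such as a steroid, thyroid hormone, retinoic acid, oxysterol or bile acid. A set of 46 mouse genes of this family was read from arrays of sorted colon fibroblasts, with each gene represented by the array's transcript cluster (the probes that read one transcript region) that names that gene alone; where several do, the one with the highest mean over the 8 arrays was kept. By this rule 42 of the 46 genes were measured. The other 4 were not: the clusters for Ppard and Esrra also name another gene, and no cluster used here names Nr1h2 or Nr2e3. The 42 stand among 30748 genes measured in the same way.

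The samples came from the colon of wild-type C57BL/6J mice. Cells without Epcam (epithelium), CD45 (leukocytes) and CD31 (endothelium) and with gp38, the podoplanin coded by Pdpn, were sorted by CD90, the surface protein coded by Thy1, into a CD90-negative population (samples 13, 15, 17 and 19) and a CD90-positive population (samples 14, 16, 18 and 20). No treatment is named, both populations share the same gates and strain, and the design text gives 4 mice without saying which samples share one. The p-values therefore rest on sample-to-sample spread, which may be partly technical. The question of the comparison is which genes set the fibroblasts with CD90 apart from those without it.

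All values are log2 expression as deposited, one array per sample, and every difference is CD90-positive minus CD90-negative, given with its 95% confidence interval. The deposited scale ran up to 19.85, beyond the 16 that a 16-bit scan can hold, so differences are given on the log2 scale and not as ratios of RNA. A gene was tested where at least 4 of the 8 samples reached 5.36, the median of all cluster values, and it is said to be higher or lower (to have risen or fallen) in CD90-positive cells where the limma adjusted p was under 0.05. The array's negative control rows give a second yardstick for dim genes: their median lay between 6.79 and 6.84 in the CD90-negative samples and between 6.58 and 6.67 in the CD90-positive ones. A gene below that line in a sample is called dim there. Values of different genes come from different probes, so only values of one gene are compared with each other. In sorted bulk samples, fewer cells that express a gene and less of its RNA per cell cannot be told apart.

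The sort and the samples were checked first. Thy1 was 5.52 ± 0.046 (SD, n = 4) in the CD90-negative and 7.69 ± 0.47 (n = 4) in the CD90-positive samples, with no overlap (exact permutation p = 0.0286, the smallest that 4 against 4 samples allow). The 7 fibroblast markers were above the negative controls in all 8 samples, with list means of 15.27 to 15.60. Dcn, Lum and Vim were higher in CD90-positive samples (by 0.75, 0.69 and 0.38) and Col1a2 was lower (-0.72). Col1a1, Col3a1 and Pdpn were not called. Samples 13 and 14 stood apart from the rest by Xist (16.16 and 16.27, against 5.89 to 9.32) and Uty (5.49 and 5.56, against 9.65 to 10.06), so 1 sample of each population differs from the others in this way. Markers of other cells moved too, where 14.0% of all tested genes were higher and 15.7% lower. All 5 tested enteric glia markers were higher in CD90-positive samples (list mean 5.38 to 5.54 against 6.69 to 7.72, Foxd3 dim in all 8). Among them Cdh19 rose from 5.28 ± 0.32 to 10.44 ± 1.19. Of 6 tested leukocyte markers 4 were higher and none lower (5.67 to 5.88 against 5.92 to 6.37), while Ptprc, Cd3e, Cd79a, Cd14, Csf1r and Itgam were dim in all 8. Of 7 smooth muscle markers 5 were higher and 1 lower (8.69 to 9.35 against 9.29 to 10.52). Of 5 tested pericyte markers 3 were lower and 2 higher (7.46 to 7.77 against 6.58 to 6.87, Notch3 and Higd1b dim in all 8). Of 2 measured markers of interstitial cells of Cajal, the gut's pacemaker cells, Ano1 was lower and Kit not called (8.28 to 10.97 against 6.59 to 7.69). Both tested neuron markers, Uchl1 and Ret, were higher, and all 5 measured were dim in all 8. Of 3 tested mesothelial markers, Upk3b was higher and none lower. Of 11 epithelial markers none was higher or lower (7.77 to 9.72 against 8.19 to 9.67). Epcam, which the sort gated against, was nevertheless above the negative controls in all 8 samples (7.21 to 9.40). Of the epithelial list only Cdx2 was dim in all 8. Pecam1, the gene of CD31 in the gate, was above the negative controls only in samples 16, 18 and 20 (6.69 to 7.01). The part of these other cells in the results on the receptors was not tested, except where a value is given beside a result.

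The family works through shared design. Receptors for steroids mostly bind DNA as pairs of the same receptor after their ligand releases them from chaperones, whereas the receptors for thyroid hormone, retinoic acid, vitamin D, fatty acids, oxysterols and bile acids bind DNA together with a retinoid X receptor. Others, such as the NR4A group, act largely without a ligand and are controlled by how much of them is made. In the gut these receptors tie cells to dietary vitamin A, bile acids, local glucocorticoids and the daily clock.

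Of the 42 measured receptor genes 29 passed the filter, and all 29 reached the filter level in all 8 samples, so none passed through one population alone. Against all 17232 genes tested, where 29.6% changed (14.0% higher, 15.7% lower), 13 of the 29 receptor genes changed, 9 of them higher and 4 lower in CD90-positive cells. The higher ones were Pparg, Nr2f2, Nr4a1, Nr2f1, Rarb, Nr3c2, Nr4a3, Rxrg and Nr1h3, and the lower ones Nr1h4, Nr3c1, Esr1 and Nr6a1. The populations did not overlap for 11 of the 29, where 32.2% of all tested genes did not overlap. The median difference of the 29 was 0.03 and their median absolute difference 0.294, against -0.01 and 0.175 over all tested genes. Of the 13 that changed, 9 were above the negative controls in all 8 samples, Nr2f1 was above them only in the CD90-positive samples, Rarb was mixed, and Rxrg and Nr6a1 were dim throughout. Among the 16 not called, 11 had an interval inside 0.5 on either side of 0, and all but Nr1d1 had one inside 1.

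**Figure D1:**
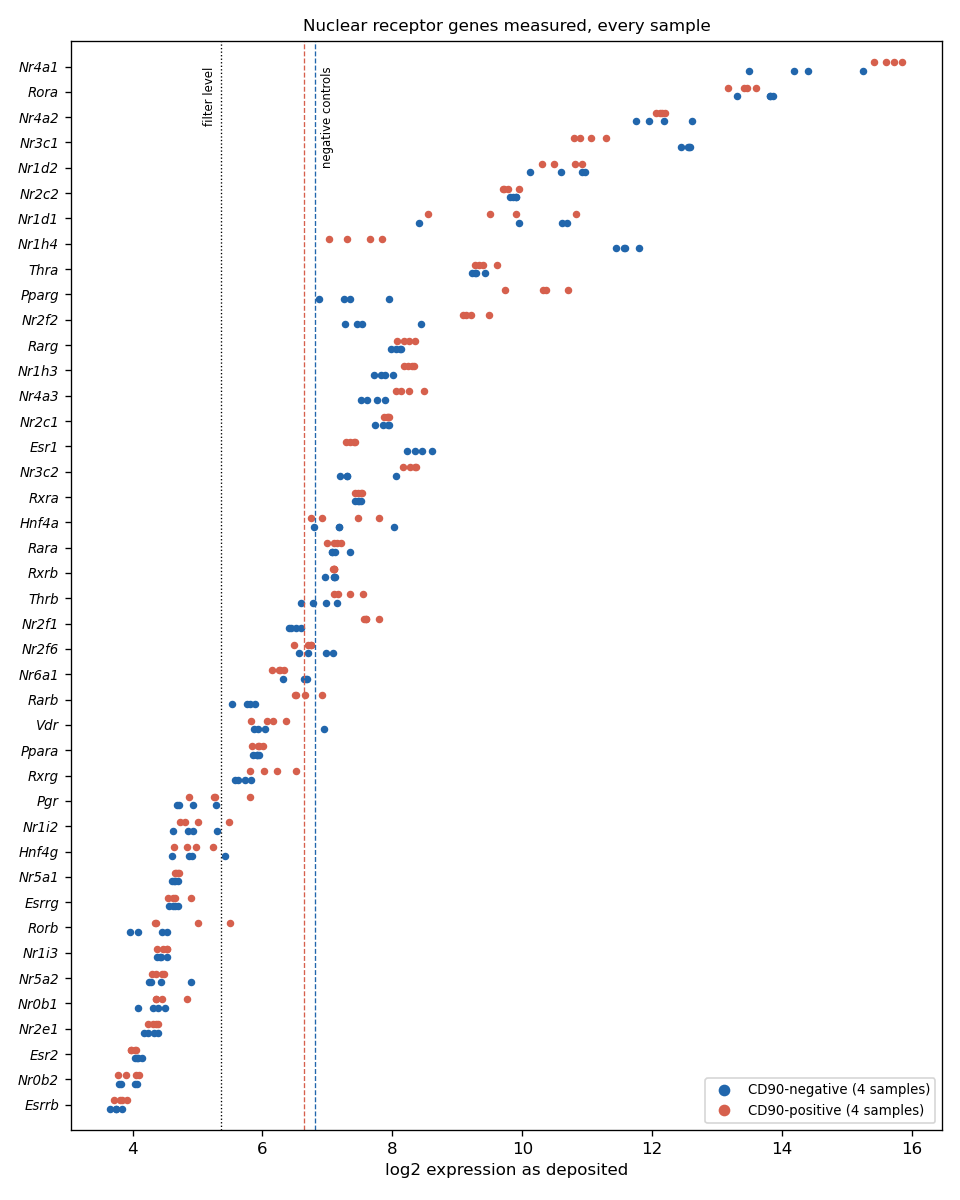
Log2 expression (x axis) of the 42 measured nuclear receptor genes in each of the 8 samples, CD90-negative in blue and CD90-positive in red, genes ordered by their mean. The dotted line is the filter at 5.36 and the dashed lines are the mean medians of the negative control rows, 6.81 in blue for CD90-negative and 6.64 in red for CD90-positive samples; 16 genes lay below their sample's control line in all 8 samples.

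**Figure D2:**
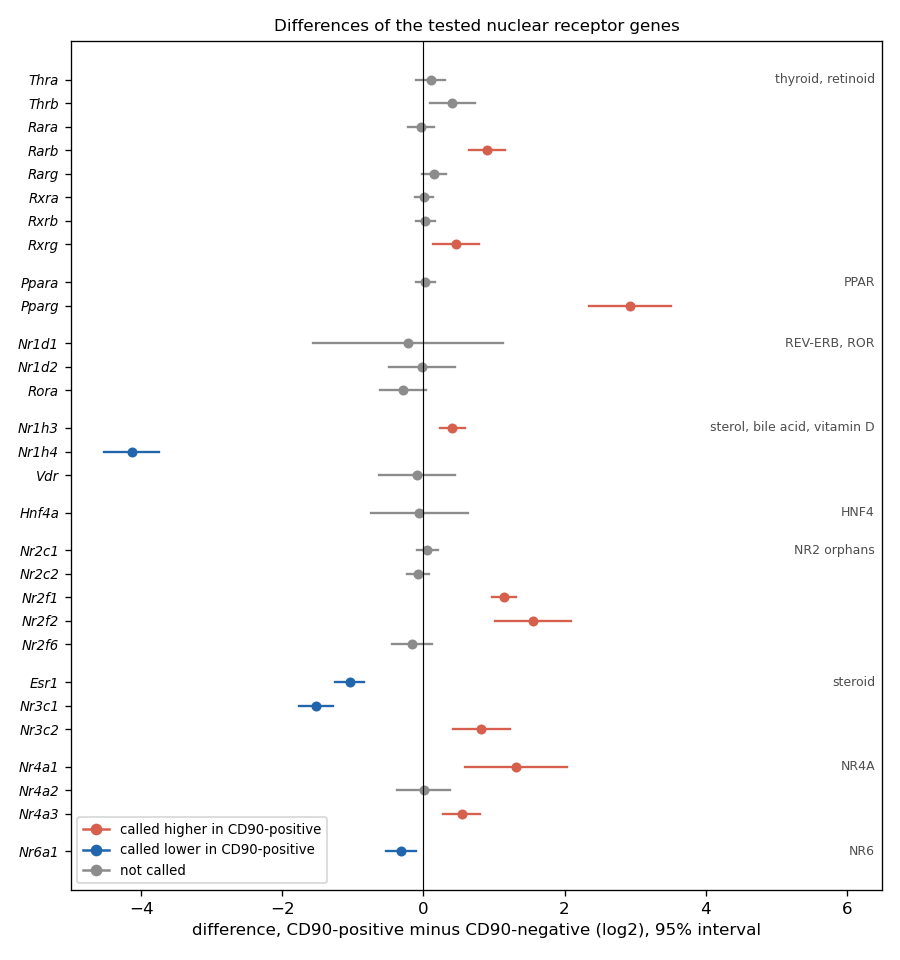
Differences of the 29 tested genes (x axis, log2, CD90-positive minus CD90-negative; points with 95% confidence intervals from limma, 4 against 4 samples), grouped by role. Red genes were called higher and blue genes lower; Nr1h4 at -4.14 and Pparg at 2.93 lie farthest from 0, and Nr1d1 has the widest interval.

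Among the steroid receptors, all 3 tested genes changed, and not in one direction. Nr3c1 and Esr1 were lower in CD90-positive cells and Nr3c2 was higher. Nr3c1 codes for the glucocorticoid receptor, which answers cortisol and corticosterone. It stood at 12.55, 12.59, 12.45 and 12.56 in CD90-negative samples 13, 15, 17 and 19 and at 11.29, 11.05, 10.80 and 10.88 in CD90-positive samples 14, 16, 18 and 20. The CD90-negative samples lay close together and all above the CD90-positive ones. The difference was -1.53 (-1.77 to -1.29, limma adjusted p = 1.39e-05).

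Nr3c2, the mineralocorticoid receptor, binds aldosterone and also glucocorticoids. Its values were 8.05, 7.20, 7.31 and 7.30 in the CD90-negative samples and 8.28, 8.17, 8.36 and 8.34 in the CD90-positive ones. Sample 13 lay well above the other CD90-negative samples and still below every CD90-positive one. The difference was 0.82 (0.42 to 1.22, limma adjusted p = 0.00791).

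Esr1, the estrogen receptor alpha, was measured at 8.23, 8.61, 8.34 and 8.46 in the CD90-negative and at 7.42, 7.28, 7.43 and 7.35 in the CD90-positive samples, so the populations were well apart. The difference was -1.04 (-1.25 to -0.84, limma adjusted p = 4.67e-05). Samples 13 and 14, which stand apart by Xist and Uty, did not stand apart here. Esr2, the second estrogen receptor, ran from 3.97 to 4.14 and was dim in all 8 samples. Pgr, the progesterone receptor and a classical estrogen target, was also under the filter, at 4.69 to 5.28 without CD90 and at 4.87 to 5.80 with it.

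The sterol and bile acid sensors held the receptor with the widest gap of the family. Nr1h4 codes for FXR, the bile acid receptor, known chiefly from hepatocytes and gut epithelium. Its promoter is printed because no other receptor gene differed as much; capitals mark the match to the nuclear receptor half-site AGGTCA, read here as its reverse complement TGACCT. The window is the 250 bases before the gene's start in RefSeq (GRCm38.p6, chr10:89506659-89506908, minus strand, written 5' to 3').
Nr1h4: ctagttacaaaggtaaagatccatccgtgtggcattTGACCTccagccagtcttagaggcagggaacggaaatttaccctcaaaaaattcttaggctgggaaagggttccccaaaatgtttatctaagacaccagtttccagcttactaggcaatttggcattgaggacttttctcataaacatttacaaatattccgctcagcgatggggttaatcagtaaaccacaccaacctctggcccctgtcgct
The match is a description of the letters and not a binding site. AGGTCA was found on either strand in 14% of all 32851 promoter windows of this length, in 11 of the 59 windows of the receptor genes (18.6%) and for 10 of the 38 receptor genes with a window.

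Nr1h4 stood at 11.79, 11.58, 11.44 and 11.57 in the CD90-negative samples and at 7.85, 7.03, 7.30 and 7.65 in the CD90-positive ones. Every sample was above its negative controls, and the populations were more than 3 log2 units apart at their nearest. The difference was -4.14 (-4.53 to -3.75, limma adjusted p = 9.27e-07). None of the 11 epithelial markers was called, and their list mean was highest in samples 13 (9.72) and 20 (9.67), one of each population. Other markers fell with Nr1h4 without overlap between the populations. In the pericyte list these were Abcc9 (-3.37, limma adjusted p = 0.000124), Kcnj8 (-2.10, 0.000281) and Cspg4 (-1.53, 3.02e-05), while Rgs5 and Notch3 of the same list rose by 1.49 (0.0315) and 0.23 (0.0191). Ano1, of the Cajal cell list, fell by 3.23 (0.000339), while Kit of that list was not called. Acta2, of the smooth muscle list, fell by 2.13 (0.00246), while 5 of the 7 markers of that list rose. In the endothelial list Lyve1 fell by 1.09 (0.000286) and the dim Prox1 by 0.49 (0.00486), while Tek rose. Col1a2, of the fibroblast list, fell by 0.72 (8.99e-05), while 3 of the 7 markers of that list rose. Nr3c1 and Esr1 were lower in the same samples, and the part of these cells in the values of Nr1h4, Nr3c1 and Esr1 was not tested. Of 5 genes that FXR is known to control in gut or liver (Slc51a, Slc51b, Abcb11, Fgf15 and Cyp7a1, a list chosen after values were seen) none passed the filter, and all were dim in all 8 samples.

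Nr1h3 codes for LXR alpha, the oxysterol receptor that governs cholesterol export. It was 7.71, 7.88, 8.01 and 7.83 in the CD90-negative and 8.19, 8.24, 8.31 and 8.34 in the CD90-positive samples. The gap was small, but no sample crossed it. The difference was 0.41 (0.24 to 0.59, limma adjusted p = 0.00404). The gene overlaps Acp2 in RefSeq, and the array values used here carry no record of which strand the probes read.

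Vdr, the vitamin D receptor, was dim in 7 of the 8 samples. It read 6.95 in sample 13 and 5.82 to 6.35 in the other 7. The difference was -0.09 (-0.64 to 0.45), and without samples 13 and 14 it was 0.25, not called in either case. Nr1i2 and Nr1i3, the xenobiotic sensors PXR and CAR, stayed under the filter at 4.62 to 5.48 and 4.38 to 4.53.

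Hnf4a, a receptor of epithelial identity, was 8.02, 6.79, 7.18 and 7.17 in the CD90-negative and 6.75, 6.91, 7.47 and 7.80 in the CD90-positive samples. Its highest values were in samples 13 and 20, the samples with the highest epithelial marker means. The difference was -0.06 (-0.74 to 0.63), and 0.35 without samples 13 and 14, not called either way. Hnf4g was under the filter at 4.60 to 5.43.

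Of the peroxisome proliferator-activated receptors, which bind fatty acids and their derivatives, Pparg rose strongly and Ppara was not called. Pparg drives fat storage and adipocyte formation and also acts in macrophages and gut epithelium. RefSeq gives Pparg more than 1 start, and the windows before 2 of them each hold 1 AGGTCA, in capitals; they are shown because Pparg had the largest rise of the receptor genes. Both are on the plus strand of GRCm38.p6, the first at chr6:115360894-115361143 and the second at chr6:115362099-115362348.
Pparg first window: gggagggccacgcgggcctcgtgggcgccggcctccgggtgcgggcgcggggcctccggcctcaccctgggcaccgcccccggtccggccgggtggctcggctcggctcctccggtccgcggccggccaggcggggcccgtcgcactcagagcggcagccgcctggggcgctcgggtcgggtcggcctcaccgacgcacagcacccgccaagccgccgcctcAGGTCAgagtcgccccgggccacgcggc
Pparg second window: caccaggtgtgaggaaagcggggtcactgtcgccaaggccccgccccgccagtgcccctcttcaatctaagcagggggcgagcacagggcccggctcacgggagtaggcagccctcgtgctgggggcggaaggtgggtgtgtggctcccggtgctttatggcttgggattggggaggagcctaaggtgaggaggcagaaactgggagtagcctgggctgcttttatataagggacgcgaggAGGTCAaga
The matches lie near the 3' end of both windows, close to the starts. As above, they describe the letters only.

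Pparg read 7.95, 6.86, 7.35 and 7.25 in the CD90-negative samples and 10.70, 9.73, 10.32 and 10.36 in the CD90-positive ones. The populations were far apart in every sample, and within each population the sample that stands apart by Xist and Uty was the highest. The difference was 2.93 (2.34 to 3.51, limma adjusted p = 5.47e-05). All 4 adipocyte markers were dim in all 8 samples (list mean 4.28 to 4.38 against 4.25 to 4.41). Among leukocyte markers Ptprc and Csf1r were dim in all 8, while Cd68, a lysosomal protein rich in macrophages, was higher by 1.05 (limma adjusted p = 0.00667); its part in the rise of Pparg was not tested. Ppara was dim, at 5.84 to 6.01 over the 8 samples, with a difference of 0.03 (-0.11 to 0.16).

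**Figure D3:**
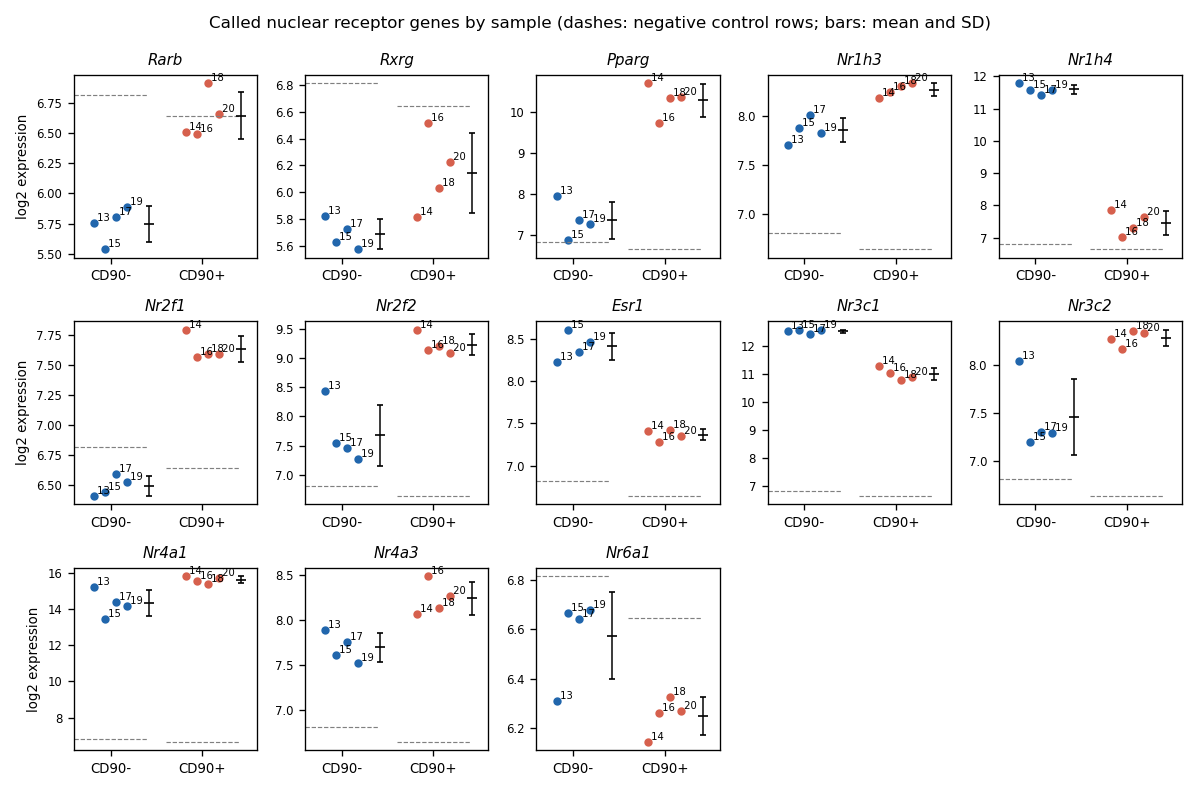
Log2 expression (y axes, which differ between panels) of the 13 called genes in each sample, numbered as in the titles, CD90-negative in blue and CD90-positive in red. Bars give mean and SD (n = 4) and dashes the negative control level; in 11 panels the populations do not overlap, and in those of Rxrg and Nr6a1 they do.

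Of the 8 retinoid and thyroid hormone receptors Rarb and Rxrg were called, both higher, where 29.6% of all tested genes were called. The retinoic acid receptors read the active form of vitamin A. Rarb, itself a classical target of retinoic acid, was 5.75, 5.54, 5.81 and 5.89 in the CD90-negative and 6.51, 6.49, 6.92 and 6.66 in the CD90-positive samples. The populations did not overlap, but every CD90-negative sample was dim and only samples 18 and 20 reached their negative controls. The difference was 0.90 (0.64 to 1.16, limma adjusted p = 0.000452).

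Rxrg, one of the retinoid X receptors that partner many of the others, was dim in all 8 samples: 5.82, 5.63, 5.73 and 5.57 against 5.81, 6.52, 6.03 and 6.22. Sample 14 lay within the CD90-negative range. The difference was 0.46 (0.13 to 0.78, limma adjusted p = 0.04). Leaving out any 1 of samples 15 to 20 ended the call, with adjusted p between 0.0608 and 0.103. The enteric glia list mean was 6.69, 7.72, 7.13 and 7.49 in samples 14, 16, 18 and 20. The part of glia in the values of Rxrg was not tested.

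The remaining receptors of this group were not called. Rara and Rarg differed by -0.04 (-0.23 to 0.15) and 0.14 (-0.03 to 0.32). Rxra and Rxrb, the more widely expressed partners, kept to 7.43 to 7.54 and 6.97 to 7.11 over all 8 samples, with differences of 0.01 (-0.12 to 0.14) and 0.03 (-0.11 to 0.16). Thra, a thyroid hormone receptor, ran from 9.22 to 9.62 with a difference of 0.10 (-0.10 to 0.30); its gene overlaps Nr1d1.

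Thrb, the other thyroid hormone receptor, was 7.15, 6.97, 6.59 and 6.78 in the CD90-negative and 7.54, 7.10, 7.34 and 7.16 in the CD90-positive samples. The populations overlapped by sample 13. The difference of 0.41 (0.09 to 0.73) missed the threshold (limma adjusted p = 0.0564), and without sample 13 it was 0.50 and passed (adjusted p = 0.0235).

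Among the NR2 orphan receptors, both COUP transcription factors were higher in CD90-positive cells and the other 3 tested genes were not called. COUP-TFI and COUP-TFII, coded by Nr2f1 and Nr2f2, repress or activate genes in mesenchyme, nerve and vessel development; Nr2f2 is also known from veins and lymphatics. Nr2f1 was 6.41, 6.44, 6.59 and 6.52 in the CD90-negative samples, all dim, and 7.79, 7.57, 7.59 and 7.59 in the CD90-positive ones, all above their controls. The difference was 1.14 (0.97 to 1.31, limma adjusted p = 1.04e-05).

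Nr2f2 was 8.44, 7.54, 7.45 and 7.27 in the CD90-negative and 9.49, 9.14, 9.20 and 9.09 in the CD90-positive samples. Samples 13 and 14 were the highest of their populations, yet sample 13 stayed below every CD90-positive sample. The difference was 1.56 (1.02 to 2.09, limma adjusted p = 0.00124). Endothelial markers went both ways. Of 6 tested, Tek was higher and Lyve1 and Prox1, both of lymphatics, were lower. Cdh5, Kdr, Emcn, Cldn5 and Prox1 were dim in all 8. Pecam1, the gene of CD31, was not called (0.35, -0.24 to 0.94). It was dim in the CD90-negative samples and in sample 14, and read 7.01, 6.69 and 6.81 in samples 16, 18 and 20. All 5 tested glia markers and 5 of the 7 smooth muscle markers rose as both COUP genes did, while Acta2 of the smooth muscle list fell. The part of these cells was not tested.

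Nr2c1 and Nr2c2, the testicular receptors TR2 and TR4, differed by 0.05 (-0.10 to 0.20) and -0.08 (-0.24 to 0.08), and Nr2f6 by -0.16 (-0.44 to 0.12). Nr2e1, a receptor of neural stem cells, was dim at 4.17 to 4.39.

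The NR4A receptors, immediate-early genes switched on within minutes by growth signals and stress, split into Nr4a1 and Nr4a3, which were higher in CD90-positive cells, and Nr4a2, which was not called. The promoters of Nr4a1 (GRCm38.p6, chr15:101266596-101266845, plus strand) and Nr4a3 (chr4:48045055-48045304, plus strand) are printed because these members rose together. Capitals mark TGACG, or its reverse complement CGTCA, the core of the cyclic AMP response element.
Nr4a1: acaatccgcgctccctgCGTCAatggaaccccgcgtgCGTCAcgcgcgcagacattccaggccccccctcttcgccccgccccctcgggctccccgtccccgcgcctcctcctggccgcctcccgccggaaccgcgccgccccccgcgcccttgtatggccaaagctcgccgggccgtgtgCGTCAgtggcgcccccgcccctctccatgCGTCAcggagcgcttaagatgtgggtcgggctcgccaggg
Nr4a3: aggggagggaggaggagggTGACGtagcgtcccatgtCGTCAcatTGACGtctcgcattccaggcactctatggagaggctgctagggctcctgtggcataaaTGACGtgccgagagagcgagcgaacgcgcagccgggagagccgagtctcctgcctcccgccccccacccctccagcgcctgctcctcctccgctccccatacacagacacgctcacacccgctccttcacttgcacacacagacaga
Each window holds 4 matches. TGACG was found on either strand in 17.8% of all promoter windows, in 13 of the 59 receptor windows (22%) and for 13 of the 38 receptor genes, which include all 3 NR4A genes. Nr4a2, which was not called, thus shares the match.

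Nr4a1 read 15.25, 13.48, 14.41 and 14.19 in the CD90-negative and 15.85, 15.59, 15.42 and 15.72 in the CD90-positive samples. The CD90-negative samples were spread widely, and the highest, sample 13, came close to the CD90-positive range without entering it. The difference was 1.31 (0.59 to 2.04, limma adjusted p = 0.0143). Nr4a3 was 7.89, 7.61, 7.76 and 7.52 against 8.06, 8.49, 8.13 and 8.26, a difference of 0.54 (0.28 to 0.80, limma adjusted p = 0.00766) with no overlap. Nr4a2 was 12.62, 11.76, 12.18 and 11.96 against 12.13, 12.20, 12.05 and 12.16. The difference of Nr4a2 was 0.00 (-0.37 to 0.38), with the CD90-negative samples on both sides of the CD90-positive ones.

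A list of 10 other immediate-early genes was chosen after values were seen. Of the 8 tested, 5 were higher and none lower in CD90-positive cells, with a median difference of 0.60. Over all tested genes 14.0% were higher and 15.7% lower. Atf3 was higher by 1.29 (limma adjusted p = 1.85e-05), Ier2 by 0.74 (0.000389), Egr1 by 0.53 (0.00171) and Jun by 0.57 (0.00303). Fos was higher by 0.64 (0.0305), a call lost in 6 of 8 leave-one-out fits (adjusted p up to 0.0730). Fosb (0.23), Egr2 (0.08) and Fosl2 (0.73, adjusted p = 0.0847) were not called. In Fos, as in Nr4a1, sample 15 was the lowest CD90-negative sample (14.96) and sample 13 the highest (15.96). These genes are known to respond to tissue digestion and sorting; whether handling had a part in the values of the NR4A genes was not tested.

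The REV-ERB and ROR receptors belong to the daily clock, in which RORs activate and REV-ERBs repress Arntl, the gene of BMAL1. None of the 3 tested genes was called. Nr1d1, REV-ERB alpha, was 10.69, 8.42, 10.61 and 9.95 in CD90-negative samples 13, 15, 17 and 19 and 10.83, 8.55, 9.91 and 9.50 in CD90-positive samples 14, 16, 18 and 20. The spread within each population (SD 1.1 and 0.94) was far wider than the gap between them (-0.22, -1.57 to 1.13). Samples 15 and 16 were the lowest of their populations, and samples 13 and 14 the highest.

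Nr1d2, REV-ERB beta, had the same lowest samples, 10.12 in sample 15 and 10.30 in sample 16, and otherwise ran from 10.49 to 10.97. Its difference was -0.02 (-0.50 to 0.45). Rora was 13.31, 13.87, 13.81 and 13.82 in the CD90-negative and 13.41, 13.59, 13.17 and 13.46 in the CD90-positive samples, a difference of -0.29 (-0.62 to 0.03, limma adjusted p = 0.157). Sample 13 lay apart from the other CD90-negative samples, and without it the difference of Rora was -0.42 and called (adjusted p = 0.0161). The other 2 clusters that name Rora differed by -0.17 and -0.07. Rorb was under the filter at 3.96 to 5.50.

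Of 15 other clock genes 14 were tested. Of those tested 5 were higher and 1 lower, with a median difference of 0.01. Over all tested genes 14.0% were higher and 15.7% lower. Arntl was higher by 0.31 (limma adjusted p = 0.0358) and Clock, its partner, by 0.30 (0.00743). Nfil3 was higher by 0.70 (0.00596), Cry2 by 0.75 (0.0108) and the dim Bhlhe41 by 0.69 (0.000234). Bhlhe40 fell by 0.60 (0.0131). The call of Arntl was lost when any 1 sample other than 17 was left out (adjusted p 0.0518 to 0.0873).

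**Figure D4:**
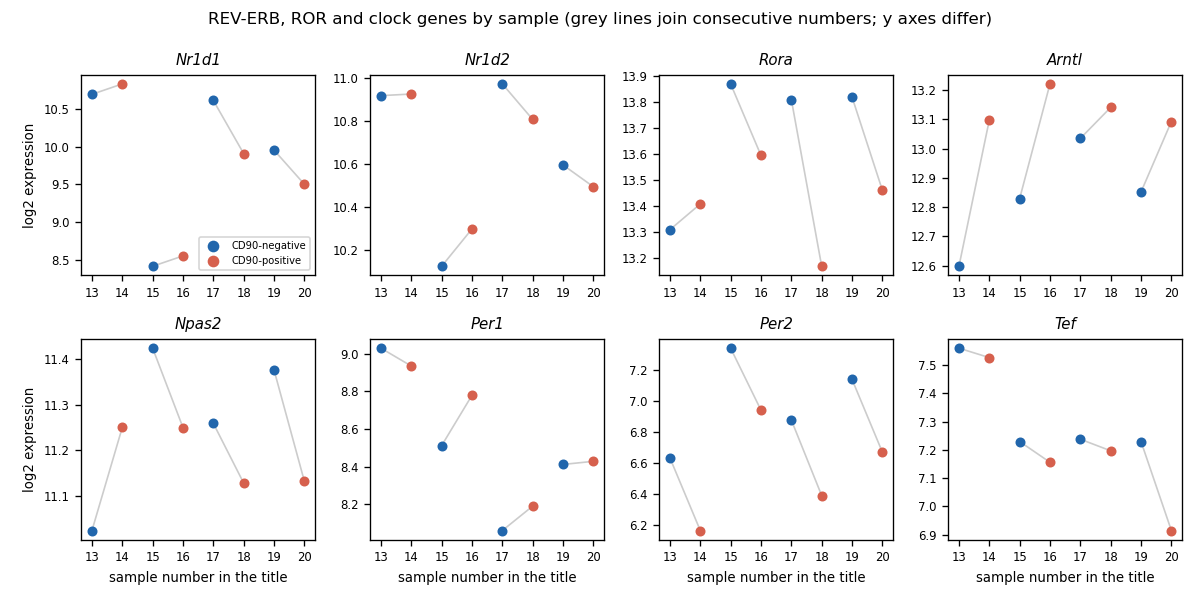
Log2 expression (y axes, which differ) of Nr1d1, Nr1d2, Rora and 5 clock genes against the sample number of the title, CD90-negative in blue and CD90-positive in red; grey lines join consecutive numbers, which the labels do not tie to a mouse. Nr1d1 and Nr1d2 are lowest in samples 15 and 16, and Per2, not called, ran from 6.16 to 7.34 with the CD90-positive sample below the CD90-negative one on each grey line (Npas2, Per1, Per2 and Tef were chosen after their values were seen).

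Of the remaining receptors only Nr6a1, the germ cell nuclear factor, was tested. It was dim in all 8 samples, at 6.31, 6.66, 6.64 and 6.68 against 6.14, 6.26, 6.33 and 6.27, with sample 13 inside the CD90-positive range. The difference was -0.32 (-0.54 to -0.11, limma adjusted p = 0.0313), and leaving out any 1 sample other than 13 ended the call (adjusted p 0.0503 to 0.0883). Nr5a1 and Nr5a2, receptors of steroid-making tissue, liver and crypt epithelium, ran from 4.61 to 4.72 and 4.26 to 4.91. The receptors without a DNA-binding domain, Nr0b1 and Nr0b2 (DAX1 and SHP, an FXR target), ran from 4.09 to 4.84 and 3.78 to 4.10. The estrogen-related receptors Esrrb and Esrrg ran from 3.66 to 3.91 and 4.54 to 4.90. All of these were dim throughout.

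Among the genes that make, carry or break down ligands of these receptors, Hsd11b1 and Aldh1a3 rose and Aldh1a1 fell by more than 2 log2 units. Of 24 listed, 20 were measured and 13 tested. Of those tested 2 were higher and 4 lower, with a median difference of 0.03. Over all tested genes 14.0% were higher and 15.7% lower. Hsd11b1, which regenerates active glucocorticoid inside cells, was 6.42 ± 0.24 without CD90 and 10.18 ± 0.34 with it (difference 3.76, limma adjusted p = 1.93e-06), opposite in direction to Nr3c1. The retinaldehyde dehydrogenases that make retinoic acid went both ways: Aldh1a1 fell from 13.54 ± 0.10 to 9.85 ± 0.37 (-3.69, 1.41e-06), whereas Aldh1a3 rose from 6.52 ± 0.34 to 9.45 ± 0.51 (2.93, 5.83e-05). Rdh10, the step before them, fell by 1.29 (0.000135), and Aldh1a2 and Ch25h, which makes an LXR ligand, were also lower (-1.17 and -1.18).

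Of 9 tested genes known to be driven by the glucocorticoid receptor, 5 were higher and none lower, with a median difference of 0.69. Over all tested genes 14.0% were higher and 15.7% lower. Fkbp5 rose by 0.81 (limma adjusted p = 8.14e-05) although dim in all 8 samples, Mt1 by 1.51 (0.00144), Klf9 by 0.51 (0.00219) and Dusp1, also an immediate-early gene, by 0.69 (0.00827). The fifth, Mt2, was higher by 0.81 (0.0357), a call lost in 4 of 8 leave-one-out fits (adjusted p up to 0.0899), without the filter (0.0512) and with centred arrays (0.0505). The other 4 were not called: Tsc22d3 at 0.25 (0.02 to 0.48), Sgk1 at 0.23 (-0.13 to 0.59), Zbtb16 at 0.96 (0.15 to 1.77) and Per1 at 0.08 (-0.43 to 0.59).

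PPAR targets did not all follow Pparg. Of 7 tested, 3 were higher and 1 lower, with a median difference of 0.25. Over all tested genes 14.0% were higher and 15.7% lower. Cd36, the fatty acid carrier, rose from 7.08 ± 0.57 to 8.97 ± 0.48 (1.89, limma adjusted p = 0.00218), and Pdk4 and Lpl by 0.84 (0.0234) and 0.25 (0.0499). Plin2, a lipid droplet coat, fell by 1.03 (0.000157). The adipocyte product Adipoq was dim at 3.79 to 4.08. Of 5 tested LXR targets, 1 was called: Mylip fell by 0.93 (0.024), while Abca1, Scd1 and Lpcat3 differed by 0.36, -0.30 and 0.13, not called. The call of Lpl was lost in 7 of 8 leave-one-out fits (adjusted p up to 0.121), without the filter (0.0712) and with centred arrays (0.0748). That of Pdk4 was lost without sample 15, 17, 19 or 20 (up to 0.0659). That of Mylip was lost without sample 17 or 19 (up to 0.0664) and without samples 13 and 14 together (0.0526).

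Cofactors of the receptors went both ways, as did all tested genes (14.0% higher, 15.7% lower). Of 15 coactivators 3 were higher and 3 lower, with a median difference of -0.01; Ncoa7 rose by 1.12 (limma adjusted p = 3.88e-05) and Ncoa1 by 0.59 (0.000483), and the acetyltransferase Ep300 and the methyltransferase Nsd1 fell by 0.48 (0.000937) and 0.47 (0.00111). Of 9 corepressors 7 were measured, and 2 were higher and 2 lower. Hr, a corepressor of thyroid hormone and vitamin D receptors, rose from 6.17 ± 0.11 to 7.60 ± 0.21 (1.43, 2.4e-05), Nrip1 rose by 0.30 (0.012), and Gps2 and Hdac3 fell by 0.28 (0.0416) and 0.27 (0.0455). Of 5 tested chaperones and co-chaperones of steroid receptors, Fkbp5 was higher and Ptges3 (-0.22, 0.0159) and Stip1 (-0.62, 0.0497) lower, and Hsp90aa1, a chaperone that holds steroid receptors, was not called at 0.56 (0.04 to 1.08, 0.101). The calls of Gps2, Hdac3 and Stip1 were lost in most leave-one-out fits, with adjusted p up to 0.114, 0.109 and 0.122.

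**Figure D5:**
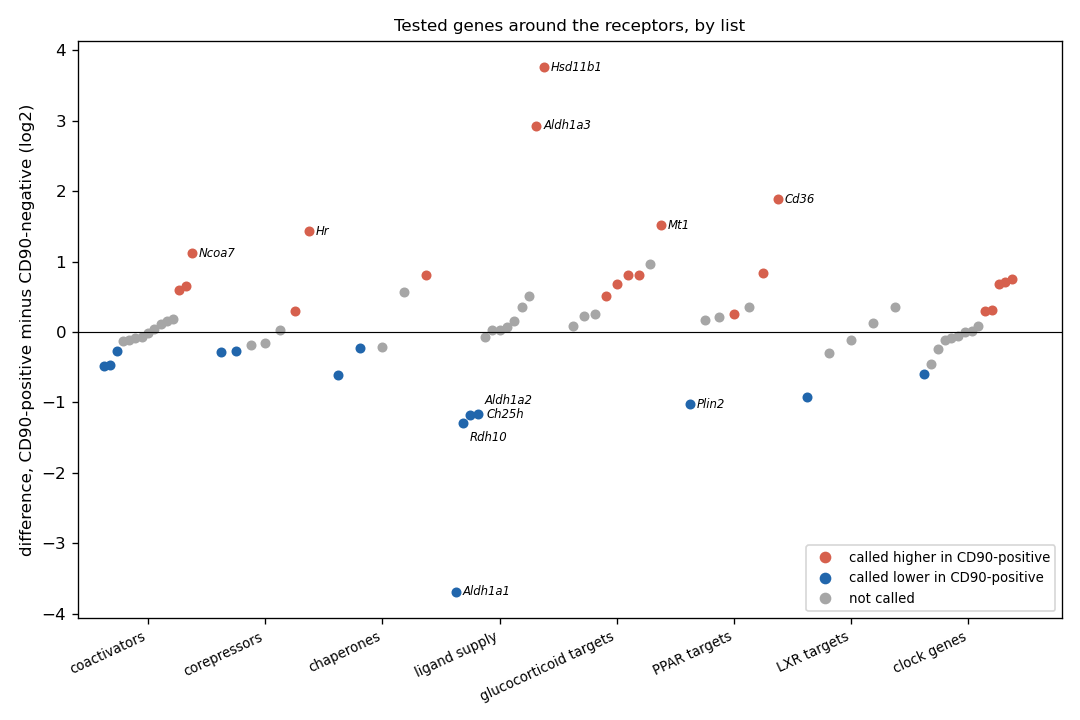
Differences (y axis, log2, CD90-positive minus CD90-negative) of the tested genes of 8 lists around the receptors, 1 point per gene, red for called higher, blue for called lower and grey for not called; the genes beyond 1 are named. Hsd11b1 (3.76) and Aldh1a3 (2.93) lie at the top and Aldh1a1 (-3.69) at the bottom, all in the ligand supply list.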

How the data were processed

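RNA of 8 sorted fibroblast samples, 4 per population, was measured on Affymetrix mouse transcriptome arrays, and 2 ng was amplified per the labels' protocols. The authors deposited log2 values, made with RMA in Affymetrix Expression Console 1.1 per the submitters' processing notes. Of 72688 rows, 6732 were controls. The platform's annotation named 1 gene for 31221 of 65956 clusters, several for 1529 and none for 33206; symbols were updated through RefSeq (GRCm38.p6), which joined 617 clusters by synonyms. Printed coordinates are RefSeq's and not the array's, for which no build was given here.

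The 17232 genes past the filter were tested with limma 3.58.1 in R 4.3.3 (lmFit, eBayes, no block), two-sided, with Benjamini-Hochberg adjustment over all of them and a threshold of 0.05; the step was tested on simulated data. The receptor genes, the lists and the alternatives were chosen with earlier results of these data known, and the immediate-early and FXR target lists after these values were seen. Named were all receptor genes, for each list at most 4 genes of smallest p, the genes of the sort gate, Xist, Uty and the cell type markers a result needed; other genes were chosen after their values were seen. The number of arrays limits the precision.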

Additional observations from a re-analysis of the deposited data

Results flagged for a closer look

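In 6 of the 58 groups of 4 samples formed by the 29 tested receptor genes, 1 sample lay apart from the other 3 by more, relative to the group's range, than Dixon's 95% critical value; chance gives about 1 in 20. In the CD90-negative population sample 13 was apart in 4 genes. Rora was 13.31 in it (13.81 to 13.87 in the others), Vdr 6.95 (5.86 to 6.04), Nr3c2 8.05 (7.20 to 7.31) and Nr6a1 6.31 (6.64 to 6.68). Sample 13 also had the highest epithelial marker mean (9.72), and was apart from 15, 17 and 19 by Xist and Uty; their part in these values was not tested. Rxrb was 6.97 in sample 15 (7.10 to 7.11 in the others). Nr2f1 was 7.79 in CD90-positive sample 14 (7.57 to 7.59 in the others).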

How the results depend on the processing

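The calls of Pparg, Nr1h3, Nr1h4, Nr2f1, Nr2f2, Esr1, Nr3c1, Nr3c2, Nr4a1 and Nr4a3 held under every alternative run. That of Rarb held in the 16 alternatives that tested it. With the filter set at the negative control rows Rarb was too dim to be tested. Leaving out 1 sample at a time gave 3976 to 5201 calls over all genes (1917 to 2375 higher, 2001 to 2880 lower) and 11 to 15 among the receptor genes (8 to 10 higher, 3 to 5 lower). The other alternatives gave 4485 to 7011 and 11 to 15. Centring each array lowered the share of calls that were higher from 47.1% to 37.8%. Rxrg was not called under 10 of its 16 alternatives and Nr6a1 under 7 of 16. Without samples 13 and 14, 15 receptor genes were called, Thrb and Rora among them.

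The labels give the populations no shared replicate numbers, so a pairing is not part of the stated design. Deviations from the population means correlated at 0.438, 0.356, 0.450 and 0.284 for consecutive numbers, but sample 19 correlated more with 18 (0.315) than with 20. Values of single genes also hint at pairs: Xist was high in 13 and 14, and Cwc22 read 8.20 and 7.86 in 13 and 14, 9.28 and 9.43 in 15 and 16, 14.70 and 14.34 in 17 and 18, and 13.89 and 13.47 in 19 and 20. A replicate block on these assumed pairs gave 5939 calls, and 9 receptor genes higher and 4 lower, with Thrb called (adjusted p = 0.0322) and Rxrg not (0.0670). Of the other genes named, it added calls for Per2 (-0.46, 0.00211), Hsp90aa1 (0.56, 0.00115) and Abca1 (0.36, 0.0185) and lost that of Mt2 (0.0654).

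Differences that changed sign all belong to genes not called. With centred arrays Rxra was -0.0316, Rxrb -0.0177, Ppara -0.0170 and Nr4a2 -0.0394. With a second quantile normalization Ppara was -0.0203, Nr1d2 0.0121 and Nr4a2 -0.00792. With array weights Vdr was 0.20 and Hnf4a 0.26. Without samples 13 and 14 Vdr was 0.25 and Hnf4a 0.35. Leaving out 1 sample at a time gave -0.0692 to 0.0287 for Rara, -0.00551 to 0.0308 for Rxra, -0.00889 to 0.0397 for Rxrb, -0.72 to 0.16 for Nr1d1, -0.198 to 0.0899 for Nr1d2, -0.20 to 0.16 for Vdr, -0.25 to 0.18 for Hnf4a, -0.12 to 0.17 for Nr4a2 and -0.0677 to 0.26 for Per1. The cause was not tested.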
